A study of Homo sapiens with 16 samples.

Results

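The short arm of chromosome 17 (17p) was examined for binding of TOP2B (DNA topoisomerase II beta) in PC9 cells. Its members were the TOP2B intervals on chromosome 17 whose midpoint lay within 22 Mb and 200 kb of the tip of the arm on GRCh37, a rule that uses position alone. There were 756 such intervals among 44922 intervals in 4 lists. PC9 is an established human lung adenocarcinoma line that depends on mutant EGFR, and osimertinib is an inhibitor of that receptor. The 4 conditions were METTL7A knockout cells under osimertinib, untreated METTL7A knockout cells, wild-type cells under osimertinib and untreated wild-type cells. Treated cells had been kept for 6 to 8 weeks under osimertinib doses that began at 100 nM. How the knockout was made, and whether its line is 1 clone, was not stated in the labels, and the genotypes were not checked at the METTL7A locus. Each condition had 2 replicate libraries of CUT&RUN, an assay that sequences the DNA freed by an antibody-tethered nuclease, and 1 deposited list in which their peaks had been intersected. No spread between replicates could therefore be set against any difference, and no test between conditions was made.

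TOP2B cuts both strands of a DNA duplex, passes another duplex through the break and reseals it, which relieves the twisting strain that arises at transcribed genes and at the anchors of chromatin loops. METTL7A belongs to the methyltransferase-like family. The short arm of chromosome 17 carries MAP2K4, a stress kinase gene, NCOR1, a transcriptional corepressor gene, and FLCN, the folliculin tumour suppressor gene. Its part next to the centromere is rich in low-copy repeats, long stretches of near-identical sequence. Genes and bases are not assigned to intervals here, because the annotation at hand belongs to another build than GRCh37.

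The lists held 7493 intervals in treated knockout, 12493 in untreated knockout, 9655 in wild type under osimertinib and 15281 in untreated wild type. The depth of the libraries is unknown. Within a list the deposited maxima of the called peaks were whole multiples of 1 step, and the lowest maximum that entered a list was 4 steps in treated knockout, 2 in untreated knockout and 5 in each wild-type list. Without drug the step was 0.0723 for the knockout and 0.0392 for wild type, and the list median maximum was 5 and 12 steps. With drug the step was 0.0379 for the knockout and 0.0535 for wild type, and the median was 8 and 11 steps. The treated wild-type list stood apart in its makeup by chromosome. With 0.5 intervals added to each count, its share was 0.335 times that of untreated wild type on chromosome 20 and 0.130 times on chromosome X. Counted in the same way, treated knockout had 19.4 times the share of the treated wild-type list on chromosome X. Results that rest on that list are set beside the comparison of the untreated lists, which does not use it. Intervals of 95% are exact for independent counts and cover counting error only. Neighbouring TOP2B intervals are not independent, so the counting error may be larger than these limits show.

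TOP2B intervals on 17p were few in knockout cells and many in wild-type cells, most of all in wild-type cells under osimertinib. Treated knockout cells had 27 intervals on the arm, 0.360% of their list (95% interval 0.238 to 0.524). Untreated knockout cells had 43, or 0.344% (0.249 to 0.463). Treated wild-type cells had 433, or 4.48% (4.08 to 4.92), and untreated wild-type cells had 253, or 1.66% (1.46 to 1.87). Both knockout shares were below both wild-type shares, and the treated wild-type share was the highest. The 95% intervals treat intervals as independent, while 59.6% of the treated wild-type intervals on the arm were pieces of a split called peak. They do not measure a spread between conditions. Wild-type lists also held more of the called peaks, with 25 called peaks in knockout cells under osimertinib and 42 without, and 272 in wild-type cells under osimertinib and 209 without. The arm's intervals covered 38.4 kb in treated knockout and 85.5 kb in untreated knockout, which is 0.409% and 0.367% of the length covered by each list. They covered 565 kb in treated wild type, or 4.69% of the list's length, and 701 kb in untreated wild type, or 1.44%. The shares of length stood in the same order as the shares of intervals.

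**Figure D1:**
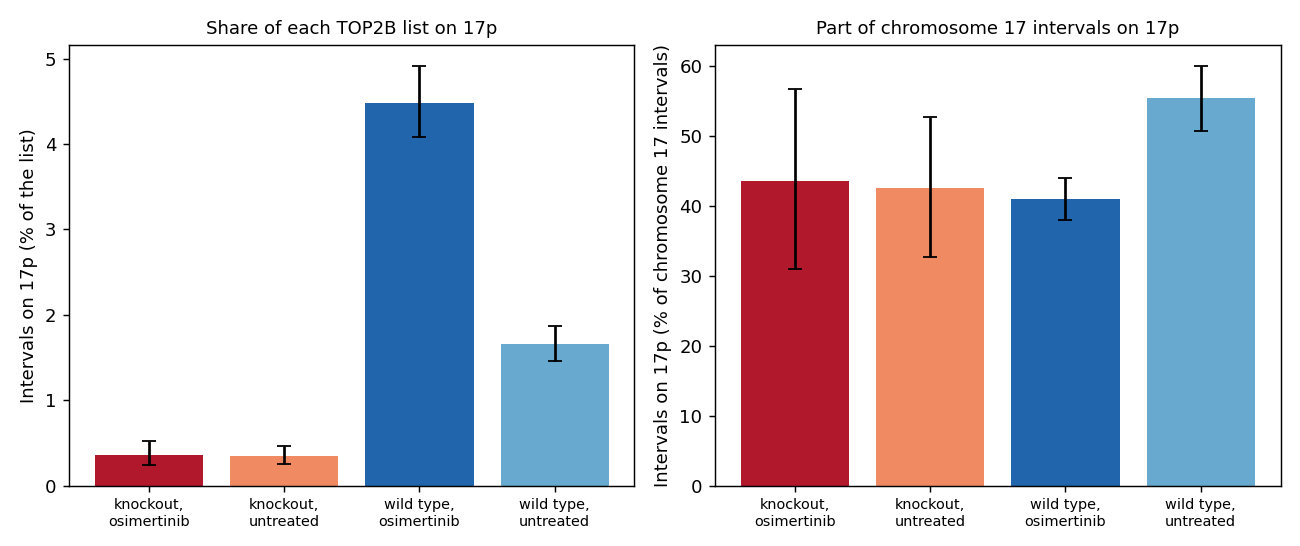
Left, intervals on 17p as a percentage of each TOP2B list; right, intervals on 17p as a percentage of those on chromosome 17; bars are single lists and error bars are exact 95% intervals for counting error. The knockout lists have 0.360 and 0.344% of their intervals on 17p, against 4.48 and 1.66% in the wild-type lists, while 17p holds 41.0 to 55.5% of the chromosome 17 intervals in each list.

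The wild-type intervals formed 2 stretches separated by a sparse one. In the first 10 Mb stood 225 intervals of treated wild type and 148 of untreated wild type. From 10 to 16 Mb there were 35 and 11 intervals in the same order of conditions, and from 16 to 21 Mb there were 143 and 80. The window at 17 to 18 Mb was the densest of the arm in both wild-type lists, with 67 intervals in treated wild type and 43 in untreated wild type. In the treated wild-type list 9 of the 951 windows of the genome with an interval held more than this one, and in the untreated list 103 of 1059 did. Of the 23 windows of the arm, the last of which is partial, 22 had an interval in treated wild type and 20 in untreated wild type.

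Knockout intervals were thin over the same stretches and gathered next to the centromere. Treated knockout cells had intervals in 8 of the 23 windows and untreated knockout cells in 13. The first 10 Mb held 7 intervals in treated knockout and 17 in untreated knockout. From 10 to 16 Mb each knockout list held 1 interval, and from 16 to 21 Mb they held 3 and 10. The longest stretch without an interval ran over 4.89 Mb in treated knockout (11460201 to 16353500) and over 7.07 Mb in untreated knockout (8796751 to 15869400). It was 0.769 Mb in treated wild type and 2.74 Mb in untreated wild type. The window at 21 to 22 Mb held 16 of the 27 intervals in treated knockout, or 59.3% (38.8 to 77.6), and 15 of the 43 in untreated knockout, or 34.9% (21 to 50.9). In treated wild type it held 30 of 433, or 6.93% (4.72 to 9.74), and in untreated wild type 14 of 253, or 5.53% (3.06 to 9.11).

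**Figure D2:**
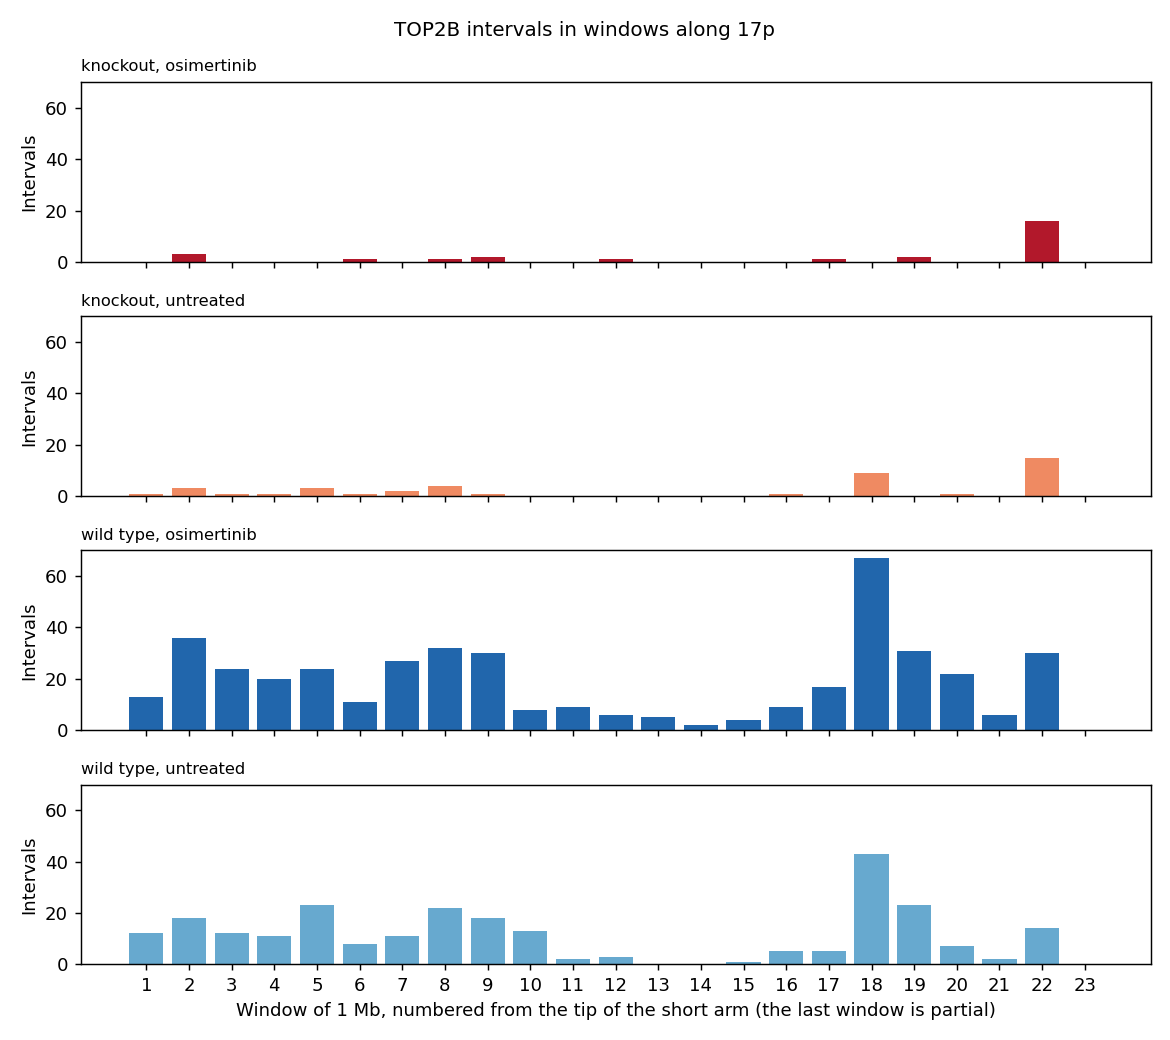
Number of TOP2B intervals in each 1 Mb window of 17p, numbered from the tip of the arm, in 1 panel per list with the same vertical axis. Window 18 is the highest in the wild-type panels (67 and 43 intervals), and window 22 is the highest in the knockout panels (16 and 15).

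The untreated knockout list was compared with the untreated wild-type list to describe how they differ without drug. Whether loss of METTL7A accounts for a difference between the lines was not tested. The knockout list had the larger step and fewer steps at its median maximum. Intervals of the arm had a median maximum of 5 steps in the knockout and 10 in wild type. Whether peaks of low maximum were missed more often in the knockout list was not tested. The arm held 43 intervals in untreated knockout and 253 in untreated wild type, a ratio of list shares of 0.208 (0.147 to 0.288). Of the 23 units formed by the chromosomes and the arms of chromosome 17 with at least 20 intervals in either list, 17p had the lowest ratio. Windows of 1 Mb with at least 5 intervals in either list were then examined for a share ratio of at least 2-fold, with 0.5 intervals added to each count. On 17p 16 windows qualified, and in 15 of them the knockout share was lower by 2-fold or more, against 23.2% of 586 windows of the genome. In 0 windows of 17p was it higher by that much, against 6.48% of windows of the genome. The median log2 share ratio was -2.33 over the windows of the arm and -0.31 over the windows of the genome. The lowest ratios were at 18 to 19 Mb, with 0 intervals in the knockout and 23 in wild type (upper bound 0.213), at 9 to 10 Mb, with 0 and 13 (upper bound 0.401), and at 8 to 9 Mb, with 1 and 18 (0.0680, 0.00163 to 0.430). The highest were at 21 to 22 Mb, with 15 in the knockout and 14 in wild type (1.31, 0.590 to 2.93), at 15 to 16 Mb, with 1 and 5, and at 17 to 18 Mb, with 9 and 43 (0.256, 0.110 to 0.532). The window at 21 to 22 Mb was the single one of the 16 within 2-fold.

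Under osimertinib the ratio between the genotypes was lower still, though its difference from the untreated one was not tested. The arm held 27 intervals in treated knockout and 433 in treated wild type, a ratio of shares of 0.0803 (0.0523 to 0.119). Among 22 units the arm had the second lowest ratio, next to 17q. Of 20 windows that qualified, the knockout share was lower by 2-fold or more in 19, against 52.7% of 547 windows of the genome, and higher by 2-fold or more in 0, against 26.5%. The median log2 share ratio was -3.80 over the windows of the arm and -1.22 over all windows. At 17 to 18 Mb treated knockout had 0 of its 7493 intervals, which allows a share of up to 0.0400% if the limit is set at 3 counts, and treated wild type had 67, a share of 0.694% (0.538 to 0.880). The other lowest ratios were at 6 to 7 Mb, with 0 intervals in the knockout and 27 in wild type (upper bound 0.189), and at 2 to 3 Mb, with 0 and 24 (upper bound 0.214). The highest were at 21 to 22 Mb, with 16 and 30 (0.687, 0.350 to 1.30), at 11 to 12 Mb, with 1 and 6, and at 5 to 6 Mb, with 1 and 11 (0.117, 0.00272 to 0.806).

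In wild type, osimertinib was compared with no treatment. Treated cells had 433 intervals on the arm and untreated cells 253, although the treated list was the shorter one. The ratio of shares was 2.71 (2.31 to 3.18), the third highest of 22 units after 17q and chromosome 5. In 17 of the 20 windows that qualified, the osimertinib share was higher by 2-fold or more, against 34.3% of 693 windows of the genome, and in 0 it was lower by that much, against 36.8%. When each called peak was counted as 1, 9 of 19 windows of the arm were past 2-fold. The share over the genome was not computed under that count. The ratio of the arm was 2.06 by called peaks. The ratio was 5.53 among intervals whose maximum was at or above the median of their list.

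The larger number of treated wild-type intervals ran along nearly the whole arm. Treated wild type held more intervals than untreated wild type in 21 of the 23 windows and fewer in 1, at 9 to 10 Mb, where there were 8 and 13 intervals. Ratios were highest in the sparse middle of the arm, at 12 to 13 Mb, with 5 treated and 0 untreated intervals (lower bound 1.45), and at 10 to 11 Mb, with 9 and 2 (7.12, 1.47 to 67.7). Next came 16 to 17 Mb, with 17 and 5 (5.38, 1.91 to 18.7). The lowest were at 9 to 10 Mb (0.974, 0.350 to 2.54), at 4 to 5 Mb, with 24 treated and 23 untreated intervals (1.65, 0.893 to 3.06), and at 0 to 1 Mb, with 13 and 12 (1.71, 0.721 to 4.11). Counts in the 2 wild-type lists followed each other along the arm, with Spearman's rho 0.893 and Pearson's r 0.923 over the 23 windows. Spearman's rho was 0.703 between the untreated lists, 0.494 between the treated lists and 0.241 between the knockout lists. In that order Pearson's r was 0.541, 0.239 and 0.798. Without the window at 21 to 22 Mb it was 0.849, 0.340 and 0.0534. Each value describes 2 single lists, in which each point is the same stretch of the chromosome.

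In the knockout the arm's shares of 0.360% under osimertinib and 0.344% without it lay within each other's intervals. Treated knockout had 27 intervals and untreated knockout 43, a ratio of shares of 1.05 (0.622 to 1.73), the sixth highest of 23 units. The interval of the ratio covers differences of up to 1.73-fold. Of the windows on the arm 2 had enough intervals to be examined: 21 to 22 Mb, with 16 treated and 15 untreated intervals (1.78, 0.823 to 3.86), and 17 to 18 Mb, with 0 and 9 (upper bound 0.845). The second was lower by 2-fold or more, as were 23.1% of 428 windows of the genome, and 0 were higher by 2-fold or more, against 3.74%. Outside the window at 21 to 22 Mb there were 11 treated and 28 untreated intervals, a ratio of 0.655 (0.294 to 1.36). Divided by the ratio of 2.71 in wild type, the treatment ratio of the knockout was 0.386 (0.233 to 0.641, from the 4 counts on a log scale). The same quotient was 0.588 by called peaks and 0.343 by summed length. That difference between the genotypes was not tested.

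Successive 5 Mb parts of the arm gave low knockout ratios up to 20 Mb and higher ones beyond it. Against untreated wild type, the share of untreated knockout was 0.145 times as large in the first 5 Mb (9 and 76 intervals), 0.136 times from 5 to 10 Mb (8 and 72) and 0.162 times from 15 to 20 Mb (11 and 83). From 20 Mb to the boundary it was 1.15 times as large (15 and 16, 0.528 to 2.48). Against treated wild type, the share of treated knockout was 0.0330 times as large in the first 5 Mb (3 and 117), 0.0477 times from 5 to 10 Mb (4 and 108) and 0.0265 times from 15 to 20 Mb (3 and 146). Beyond 20 Mb it was 0.573 times as large (16 and 36, 0.297 to 1.06). The knockout shares thus came nearest to those of wild type next to the centromere. From 10 to 15 Mb there were 0 intervals in untreated knockout and 6 in untreated wild type (upper bound 1.04), and 1 in treated knockout and 26 in treated wild type, a ratio of 0.0496 (0.00121 to 0.302). Treated over untreated wild type was 6.86 (2.76 to 20.4) from 10 to 15 Mb and between 2.37 and 3.56 in the other parts.

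**Figure D3:**
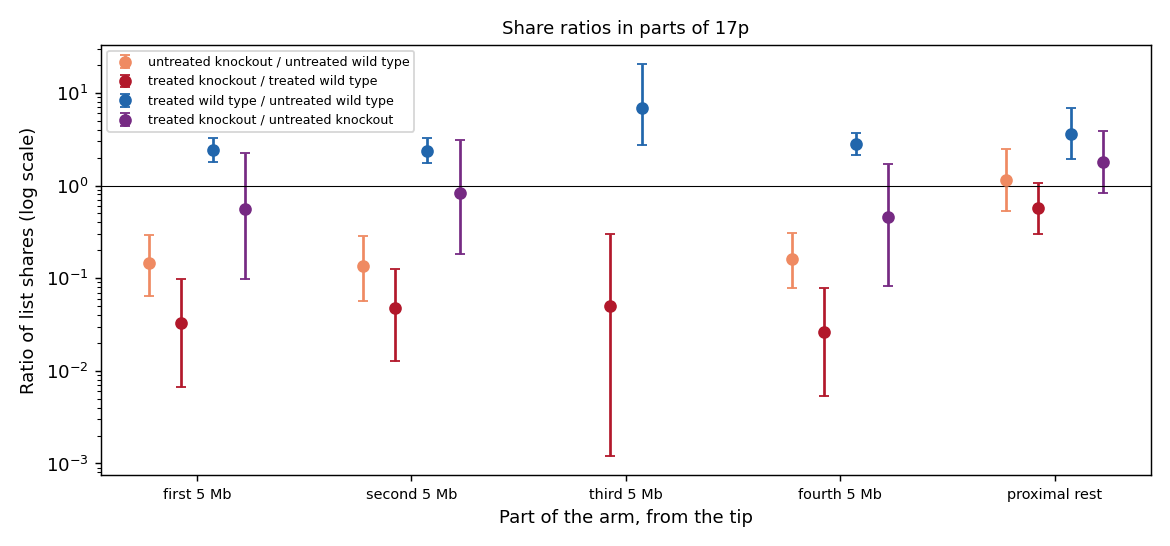
Ratio of list shares on a log scale in 5 successive parts of 17p from the tip, for the 4 comparisons, with exact 95% intervals for counting error; ratios with a count of 0 are not drawn. The knockout over wild type ratios lie between 0.0265 and 0.162 in the parts before the last and at 1.15 and 0.573 in the last, and the treated over untreated wild-type ratios lie above 1 throughout.

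The proximal window was the part of the arm that the 4 lists had in common. It was singled out after its values had been seen. In the knockout lists its intervals ran from 21199501 to 21326900 under osimertinib and from 21198951 to 21328100 without treatment. In the wild-type lists they ran from 21104401 to 21328300 under osimertinib and from 21142801 to 21796550 without treatment. Neighbouring intervals of the window were a median of 2.20 kb apart in treated knockout, 2.45 kb in untreated knockout, 1.75 kb in wild type under osimertinib and 6.20 kb in untreated wild type. Elsewhere on the arm the medians were 1543 kb, 394 kb, 13.2 kb and 21.6 kb in the same order.

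When intervals of the 4 lists that overlapped were joined, the arm held 595 positions, of which 490 came from 1 list, 97 from 2, 4 from 3 and 4 from all 4 lists. Positions of 1 list made up 82.4% on the arm, against 72.9% of the 29197 positions of the genome, and positions of all 4 lists made up 0.672%, against 2.29%. Such shares move with the number of intervals that each list holds on the arm, 27 and 43 in the knockout lists. They are therefore not separate from the difference in counts. The 4 positions present in all lists lay within the proximal window. The first, from 21303351 to 21328300, held 5 intervals in treated knockout, 5 in untreated knockout, 5 in wild type under osimertinib and a single interval of 24700 bp in untreated wild type. The second, from 21236651 to 21252800, held 4, 4, 5 and 1 intervals in that order of lists. The third, from 21218651 to 21229400, held 3, 1, 3 and 2. The fourth, from 21192451 to 21211350, held 2, 3, 5 and 1. Joined positions thus counted a broad wild-type interval and several narrower ones of another list as 1. Each list had positions of its own. Treated knockout alone held 8 positions, 1.34% of those on the arm (7.56% over the genome), and untreated knockout alone 17, or 2.86% (16.8%). Treated wild type alone held 311, or 52.3% (21.4%), and untreated wild type alone 154, or 25.9% (27.1%). The wild-type lists and no other shared 84, or 14.1% (3.25%). Counted as intervals, 8 of 27 in treated knockout and 17 of 43 in untreated knockout had no counterpart in any other list, which is 29.6% and 39.5%, against 29.5% and 39.3% of the whole lists. In treated wild type 311 of 433 had none, or 71.8%, against 64.7%, and in untreated wild type 154 of 253, or 60.9%, against 51.8%.

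**Figure D4:**
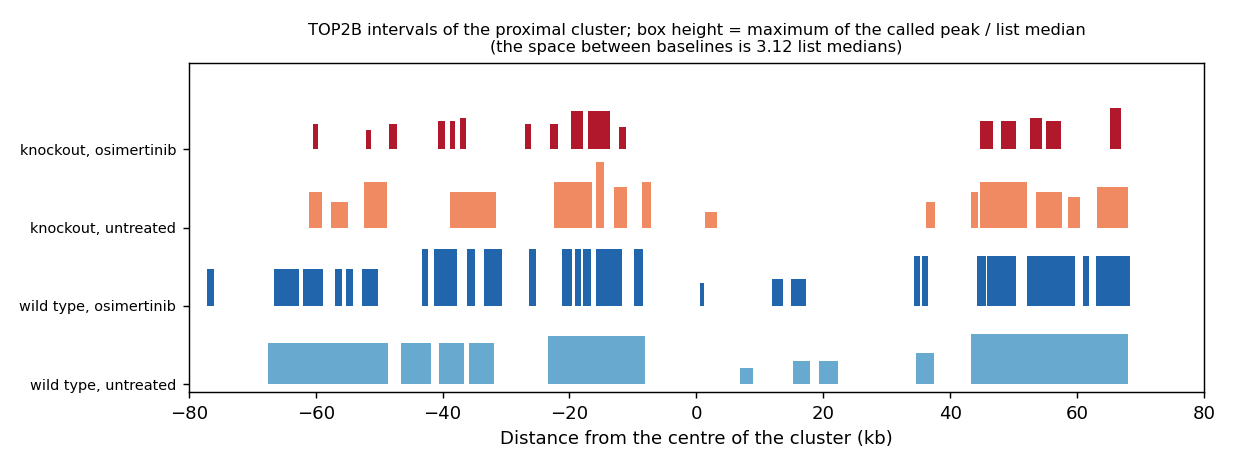
TOP2B intervals of the 4 lists around the proximal cluster, by distance from its centre in kb, 1 row per list; the height of a box is the maximum of its called peak divided by the list's median. Intervals recur at the same places in the 4 rows on either side of a sparser middle, narrowest in treated knockout, where they reach 3500 bp, and widest in untreated wild type, where they reach 24700 bp.

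The highest called peaks of the arm also lay mostly in this window. The maximum belongs to the called peak, is the authors' value, and was used within a list. The list median was taken over intervals, so a split called peak entered it once per piece. In treated knockout the highest called peak, 1.62 times its list median, stood at 21325201 to 21326900, and the next, each at 1.5 times, at 21242951 to 21246450 and 21240301 to 21242100. In untreated knockout the highest was 2.60 times the median, at 21244201 to 21245450, with 24 called peaks of its list above it. The next, each at 1.80 times, covered 21304751 to 21312100 and 21237601 to 21243550. In treated wild type they were 1 called peak that gave 10 intervals between 21216701 and 21251550 (2.27 times), 1 that gave 7 intervals between 21294251 and 21328300 (2 times) and, outside the window, 1 at 6347301 to 6348700 (1.55 times). In untreated wild type they stood at 21303351 to 21328050 (2 times), 21236651 to 21251900 (1.92 times) and, as 4 intervals, 21192451 to 21228100 (1.67 times).

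Called peaks of the window had a median maximum of 1.12 times the list median in treated knockout, 1.40 in untreated knockout, 1.18 in wild type under osimertinib and 0.958 in untreated wild type. Outside the window the medians were 0.75, 0.800, 0.909 and 0.833 in the same order of lists, and the highest values were 1.12, 1.40, 1.55 and 1.42. The widest intervals of the arm were in the window in every list. They measured 3500, 2500 and 2450 bp in treated knockout, 7350, 7250 and 5950 bp in untreated knockout, 7600, 5250 and 4550 bp in treated wild type and 24700, 18900 and 15250 bp in untreated wild type. Intervals wider than the widest of the arm numbered 107 in the treated knockout list, 63 in the untreated knockout list, 2 in the treated wild-type list and 25 in the untreated wild-type list.

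Whether the share of this window differed between conditions depended on what was counted. Against untreated wild type, untreated knockout had 1.31 times the share by intervals, 1.28 times by called peaks and 1.10 times by summed length. With intervals within 5 kb joined, untreated knockout had 0.726 times the share. Treated knockout had 0.687 times the share of treated wild type by intervals, 1.92 times by called peaks and 0.501 times by length. With intervals joined it had 0.869 times the share. The 16 treated knockout intervals came from 14 called peaks, and the 30 treated wild-type intervals from 8. Treated wild type had 3.39 times the share of untreated wild type by intervals (1.74 to 6.92), 1.27 times by called peaks and 2.81 times by length. With intervals joined it had 1.34 times the share. Without the window, the share ratio of the arm was 0.143 (0.0932 to 0.212) for untreated knockout against untreated wild type. It was 0.0352 (0.0174 to 0.0636) for treated knockout against treated wild type, against 0.0803 with the window.

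Overlap between the lists was measured as the share of intervals with a counterpart, an interval of the other list that overlaps by at least 1 bp. Of the untreated knockout intervals on the arm 23 of 43 had a counterpart in untreated wild type, 53.5% (37.7 to 68.8), close to the 53.7% of the whole list. Within the window at 21 to 22 Mb the counts were 14 of 15, and outside it 9 of 28, or 32.1% (15.9 to 52.4). In the other direction 15 of 253 untreated wild-type intervals had a counterpart in untreated knockout, 5.93% (3.36 to 9.59), against 35.1% of the whole list. Outside the window this share was 3.77% (1.74 to 7.03). A share with a counterpart moves with the number of intervals that the other list holds on the arm, which was 43 in untreated knockout. It also moves with the length that those intervals cover. In untreated wild type the window held 92.8 kb of the 701 kb covered on the arm. The 14 of 15 is therefore not separate from that coverage. With an overlap of 50% of both intervals, the share of the 43 fell from 53.5% to 11.6%.

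Between the treated lists 16 of 27 knockout intervals on the arm had a counterpart in wild type, 59.3% (38.8 to 77.6), against 13.4% of the whole list. That share is not separate from the density of treated wild type, which had 4.48% of its list on the arm. Of these 16, 13 lay in the window at 21 to 22 Mb, and outside it 3 of 11 knockout intervals had a counterpart. Of the 433 treated wild-type intervals 15 had a counterpart in treated knockout, 3.46% (1.95 to 5.65), against 10.5% of the whole list. Outside the window 3 of 403 had one, 0.744% (0.154 to 2.16).

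Between the wild-type lists 116 of 433 treated intervals on the arm had an untreated counterpart, 26.8% (22.7 to 31.2), near the 28.7% of the whole list. Of the 253 untreated intervals 93 had a treated counterpart, 36.8% (30.8 to 43.0), against 14.8% of the whole list. The 36.8% likewise moves with the 433 intervals that treated wild type held on the arm. Of the treated intervals 63.0% overlapped an untreated one or lay within 10 kb of it, with a median distance of 4.05 kb. Over the whole treated list 53.8% were within 10 kb. Between the knockout lists 14 of 27 treated intervals had an untreated counterpart, 51.9% (31.9 to 71.3), against 43.7% of the whole list. Of the 43 untreated intervals 10 had a treated counterpart, 23.3% (11.8 to 38.6), near the 23.4% of the whole list. Outside the window at 21 to 22 Mb, 1 of 11 treated and 1 of 28 untreated knockout intervals had a counterpart in the other knockout list, and both stood between 1480101 and 1482450.

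**Figure D5:**
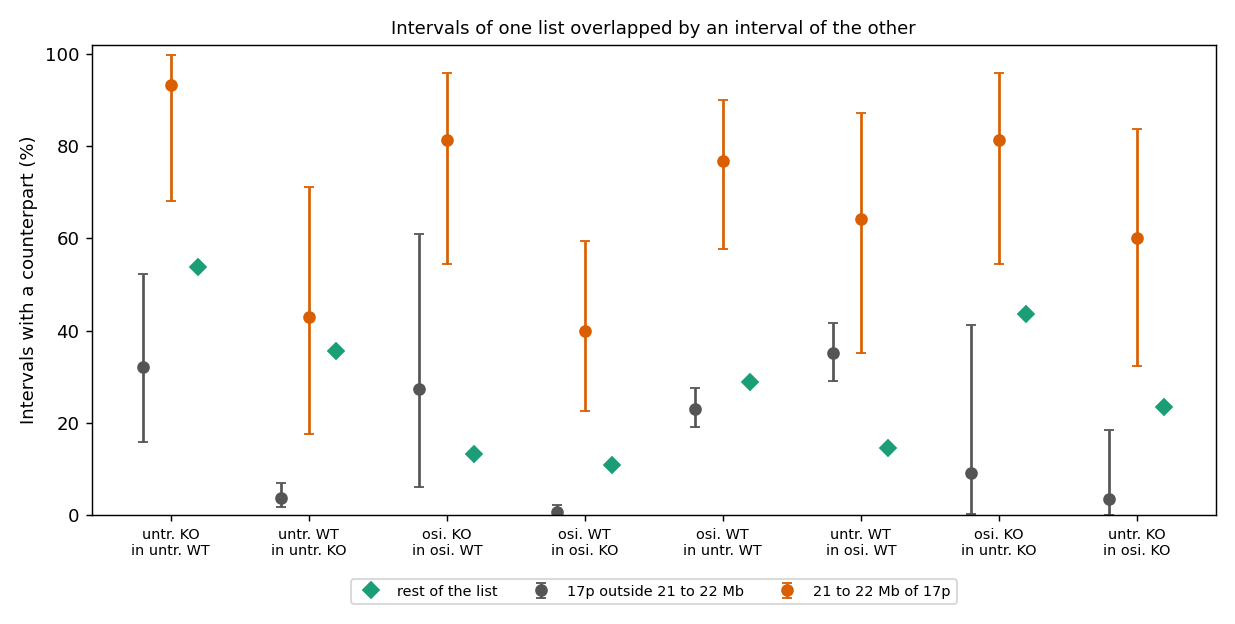
Percentage of intervals of one list that an interval of another overlaps, for the window at 21 to 22 Mb of 17p, for the rest of 17p and for the rest of the list (KO, knockout; WT, wild type; osi., osimertinib; untr., untreated); error bars are exact 95% intervals for counting error. The window at 21 to 22 Mb lies above the rest of 17p in each of the 8 columns, for example 93.3 against 32.1% for untreated knockout intervals in untreated wild type. The window was singled out after its values had been seen, and intervals lie closer together in it than on the rest of 17p.

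In width the members lay close to their lists. Median widths on the arm were 1250 bp (treated knockout), 1600 bp (untreated knockout), 1200 bp (treated wild type) and 2400 bp (untreated wild type), against 1150, 1650, 1200 and 2600 bp in the rest of each list. Intervals that were pieces of a split called peak made up 14.8% of the arm in treated knockout (33.7% of the rest of the list), 4.65% in untreated knockout (3.33%), 59.6% in wild type under osimertinib (49.4%) and 31.2% in untreated wild type (50.3%). Neighbouring intervals were a median of 7.60 kb apart in treated knockout, 82.4 kb in untreated knockout, 12.1 kb in wild type under osimertinib and 20.1 kb in untreated wild type. The rest of each list had 10.8, 8.85, 17.5 and 8.10 kb in that order. The treated knockout median rests on the window at 21 to 22 Mb, since it was 1543 kb over the other intervals of the arm. The median maximum of the arm's called peaks was 1.00 times the list median in both knockout lists, 0.909 in treated wild type and 0.833 in untreated wild type. That list median was taken over intervals. With the arm also counted by intervals, the value was 1 in both knockout lists and in treated wild type, and 0.833 in untreated wild type.

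The long arm of the chromosome (17q) was set beside the short arm, and was taken as all chromosome 17 intervals past the boundary of the rule. In each list 17q thus includes the first interval past the boundary, which lies on the short-arm side of an empty stretch. It held 35 intervals in treated knockout, 58 in untreated knockout, 623 in wild type under osimertinib and 203 in untreated wild type. The short arm held 43.5% (31.0 to 56.7), 42.6% (32.8 to 52.8), 41.0% (38.0 to 44.0) and 55.5% (50.8 to 60.1) of the chromosome 17 intervals in that order. Untreated knockout over untreated wild type was 0.208 on 17p (0.147 to 0.288) and 0.349 on 17q (0.256 to 0.470). Treated knockout over treated wild type was 0.0803 on 17p and 0.0724 on 17q (0.0500 to 0.102). Treated over untreated wild type was 2.71 on 17p (2.31 to 3.18) and 4.86 on 17q (4.14 to 5.72). The knockout and treatment differences were thus of the same direction on both arms, and the differences between the arms were not tested.

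At the boundary of the rule, the last interval inside stood at 21325201 to 21326900 in treated knockout, at 21323151 to 21328100 in untreated knockout, at 21323051 to 21328300 in treated wild type and at 21793851 to 21796550 in untreated wild type. The first outside stood at 22252201 to 22253400, 22250951 to 22252050, 22250801 to 22251800 and 22250001 to 22251800 in that order. The maxima inside were 1.62, 1.60, 2 and 0.833 times the list median, and those outside 1.75, 2, 2.45 and 1.5 times. The next intervals followed after 4.60, 4.39, 3.23 and 3.66 Mb without any, so that the interval outside lay on the short-arm side of an empty stretch in each list.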

How the data were processed

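TOP2B CUT&RUN of PC9 cells was read from 4 deposited peak lists, 1 per genotype and treatment. The 8 samples of the H2A antibody were not analysed here. The authors used SEACR, Bowtie2 2.4.2 and GRCh37, with bedtools 2.30, Trimmomatic, SAMtools 1.16, FastQC and deepTools 3.5.1, per the submitters' processing notes. Mode and control of the peak caller and the handling of duplicates were not given in the sources used here. No header stands in the deposited lists. From their values they follow the SEACR layout, with the area of a called peak as a deposited score and its maximum as a deposited signal. Several intervals can share 1 called peak, and the scaling of the signal is unknown.

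Members were found by midpoint. Positions are counted from 1. Exact 95% intervals (Clopper-Pearson for shares, conditional on the 2 counts for ratios) were computed with scipy 1.17.1 under Python 3.11.15. Windows of 1 Mb needed at least 5 intervals in either list. The named regions were, per comparison, the 3 highest and 3 lowest windows, per list the 3 highest called peaks and 3 widest intervals, and the positions in all 4 lists. Overlap and ratio functions were tested on simulated data. Alternatives counted called peaks, length or joined intervals, moved the arm's boundary, and changed overlap, window or threshold. Members, lists and rules were chosen with earlier results of these data known. Nothing in the labels says whether replicates came from separate cultures. The promoters, genes and bases planned for GRCh37 were not examined, because an annotation or genome of that build was not used here.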

Additional observations from a re-analysis of the deposited data

Results flagged for a closer look

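The treated over untreated share ratio pointed in opposite directions in the 2 genotypes in 3 of the 5 Mb parts of the arm. In the first 5 Mb it was 0.556 in the knockout and 2.44 in wild type. From 5 to 10 Mb it was 0.834 in the knockout and 2.37 in wild type, and from 15 to 20 Mb it was 0.455 in the knockout and 2.78 in wild type. The knockout ratios rest on 3 to 11 intervals per list and part, and their 95% intervals include 1. The difference between the genotypes was not tested, since each condition had 1 list.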

How the results depend on the processing

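No paired analysis was possible because each condition had 1 list made from both replicates, and no replicate was left out for the same reason. Of 134 alternative values, 85 stayed within the 95% interval of the value reported (or within 1.5 times it for counts of windows), 49 moved beyond it, and 0 of the directions whose interval excluded 1 turned round. Settings that leave out the window at 21 to 22 Mb, move the boundary to 24 Mb or recount that window were added after the data had been seen.

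The share ratio of untreated knockout to untreated wild type was 0.331 among intervals at or above the list median maximum, 0.145 below 20 Mb and 0.143 without the window at 21 to 22 Mb. That of treated knockout to treated wild type was 0.0357 below 20 Mb and 0.0352 without the window. That of treated to untreated wild type was 2.06 by called peaks, 3.25 by summed length, 1.85 with intervals within 5 kb joined, 5.53 at or above the median maximum and 1.71 by number. For the window at 21 to 22 Mb, treated knockout over treated wild type was 1.92 by called peaks, and treated over untreated wild type was 1.27 by called peaks and 1.34 with intervals joined.

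With an overlap of 50% of both intervals, shares with a counterpart were 11.6% (untreated knockout in untreated wild type), 1.98% (the reverse), 14.8% (treated knockout in treated wild type), 0.924% (the reverse), 7.16% (treated in untreated wild type), 12.3% (the reverse), 11.1% (treated in untreated knockout) and 6.98% (the reverse). Below 20 Mb they were 32.1% for untreated knockout in untreated wild type, 27.3% for treated knockout in treated wild type, 0.756% for the reverse, 9.09% for treated in untreated knockout and 3.57% for the reverse. Without the window at 21 to 22 Mb the same shares were 32.1, 27.3, 0.744, 9.09 and 3.57%. Counting intervals within 1 kb gave 34.4% for treated in untreated wild type and 45.8% for the reverse. At or above the median maximum of both lists, shares were 9.68% for untreated wild type in untreated knockout, 13.5% for treated in untreated wild type, 29.0% for the reverse and 73.3% for treated in untreated knockout.

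In windows of 2 Mb, of which the arm has fewer, 9 of 10 were past 2-fold between the untreated genotypes (15 of 16 in windows of 1 Mb), 10 of 11 between the treated genotypes (19 of 20), 9 of 11 in wild type (17 of 20) and 2 of 3 in the knockout (1 of 2). Counting called peaks gave 9 of 19 for wild type, and a minimum of 10 intervals gave 0 of 1 for the knockout, since the window at 17 to 18 Mb was no longer examined. Shares over the genome were not computed for these alternative counts of windows. Below 20 Mb the arm held 17.7% of chromosome 17 intervals in treated knockout, 27.7% in untreated knockout and 37.6% in treated wild type. Joining gave median widths of 1400 bp in treated wild type and 2600 bp in untreated wild type, and the higher maxima gave a median spacing of 49.9 kb in untreated wild type. The cause of these shifts was not tested. The number of intervals, 27 and 43 in the knockout lists, limits the precision there.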

Other observations

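Of the 28 untreated knockout intervals outside the proximal window, 16 had no counterpart in any other list, or 57.1%, against 39.3% of the whole list, 9 had one in 1 other list and 3 in 2 others. The last 3 stood at 648051 to 650950, 4378901 to 4379700 and 17430601 to 17431900, and their counterparts were in both wild-type lists. Of the 11 in treated knockout, 7 had no counterpart in any other list, or 63.6%, against 29.5% of the whole list. The other 4 had one in 1 other list. Outside the window the share without a counterpart was 75.7% in treated and 62.3% in untreated wild type. On the whole arm it was 39.5% in untreated and 29.6% in treated knockout. The window left out was singled out after its values had been seen, and the higher shares outside it are not separate from that choice. The place at 1480101 to 1482450 was the single position of the arm found in both knockout lists and in neither wild-type list, with a maximum of 0.625 times the list median in treated knockout and 0.6 times in untreated knockout. These places were chosen after their values had been seen.

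The maxima of intervals with and without a counterpart were set side by side. In untreated wild type the 15 intervals of the arm with a counterpart in untreated knockout had a median maximum of 1.00 times the list median and a median width of 3950 bp, and the 238 without had 0.833 times and 2375 bp. Over the whole list the medians were 1.17 times with a counterpart and 0.917 times without. In untreated knockout the 10 intervals with a treated counterpart had a median maximum of 1.60 times the list median, and the 33 without had 0.800 times. Outside the window at 21 to 22 Mb the medians were closer, equal or in the other order. With and without a counterpart they were 0.917 and 0.833 times for untreated wild type in untreated knockout (9 and 230 intervals), 0.800 and 0.800 for untreated knockout in untreated wild type (9 and 19), and 1 and 1 for treated wild type in treated knockout (3 and 400). For untreated in treated knockout, the single interval with a counterpart had 0.6 times the list median and the 27 without had 0.800. For treated in untreated knockout, the single one had 0.625 and the 10 without had 0.75.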
